A study of Mus musculus with 21 samples.

Results

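The comparison described here asked whether the difference between splenic CD4+ and CD8+ T cells depended on how the mice were raised. It used every mouse from which both populations were profiled, 18 of the 21 samples of the series: 6 mice raised in an enriched environment (EE mice 1 to 6) and 3 raised in a standard environment (SE mice 1, 3 and 6). The other 3 samples came from SE mice with 1 population only. For each gene the log2(normalized count + 1) of CD8+ cells was subtracted from that of CD4+ cells of the same mouse, and the 6 EE differences were compared with the 3 SE differences. The EE value minus the SE value is called the housing shift below: a positive shift means that CD4+ cells stood higher relative to CD8+ cells in EE than in SE.

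All animals were female C57BL6/J mice. EE mice lived from 4 weeks after birth, for 4 weeks, in groups of 12 to 15 in large cages with wheels, toys, tunnels and shelters, and SE mice in groups of 5 to 6 in medium cages without objects. The treatment protocol in the labels places the analysed animals of each environment in the same cage, so housing and cage cannot be told apart. T cells were sorted as CD45+ CD11b- CD3+ cells carrying CD4 or CD8, and RNA was counted by molecular identifiers attached during cDNA synthesis, so that each normalized count is a number of molecules divided by the authors' size factor. The field for the number of cells repeats the running number of each title, and the number of cells behind a library was therefore taken as unknown.

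CD4+ T cells are helper and regulatory cells that recognise peptides on MHC class II molecules, and CD8+ T cells are killer cells that recognise peptides on MHC class I molecules. Both leave the thymus as naive cells, and after meeting antigen some persist as memory cells that express calcium-binding S100 proteins, galectins, integrins, chemokines and, mostly in CD8+ cells, cytotoxic granule proteins. In bulk samples such as these, a larger share of antigen-experienced cells and more RNA per cell cannot be told apart.

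Depth was similar between the housings and lower in CD4+ than in CD8+ libraries in all 9 mice. CD4+ libraries held 145546 to 183941 molecules in EE and 157556 to 182470 in SE, and CD8+ libraries 179696 to 221454 in EE and 179008 to 203322 in SE. In EE mice the within-mouse log2 ratio of CD4+ to CD8+ totals averaged -0.236 ± 0.090 (SD, n = 6), and in SE mice it averaged -0.175 ± 0.054 (SD, n = 3; exact two-sided permutation test over the 84 splits of the mice, p = 0.369). With 6 mice against 3 such a test cannot give a p under 0.0119.

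A few libraries stood apart in RNA of other cells. The summed level of B-cell markers was 41.2 in the CD4+ library of SE mouse 1, against 515 and 392 in those of SE mice 3 and 6 and 243 to 375 in the 6 CD4+ libraries of EE mice. In CD8+ libraries that sum was 35.8 to 61.7, except for 119 in EE mouse 6. The summed level of red-cell and platelet markers was 581 in the CD8+ library of EE mouse 6 and 1030 in that of SE mouse 3, and 0 to 26.7 in the other 16 libraries. The sum of 10 myeloid markers did not overlap between housings in CD8+ libraries and overlapped in CD4+ libraries. It was 25.1 to 39.5 in CD8+ libraries of EE mice and 46.2, 54.8 and 52.9 in those of SE mice 1, 3 and 6, and 36.9 to 66.8 in CD4+ libraries of EE mice against 41.2, 37.5 and 50.7. CD4+ minus CD8+, its log2 difference was 0.17 to 0.98 in EE mice and -0.16, -0.53 and -0.06 in SE mice, without overlap. Most of the sum was Ctss, a cathepsin that lymphocytes also make. Without Ctss the CD8+ sums were 0.93 to 1.88 in EE mice and 4.28, 4.42 and 14.4 in SE mice, without overlap. The CD4+ sums were then 1.07 to 30.1 in EE mice and 6.18, 9.15 and 15.8 in SE mice, which overlapped. Within mice, CD4+ stood below CD8+ in EE mouse 3 (1.07 against 1.88) and above it in EE mouse 4 (30.1 against 0.97). In SE mice 1, 3 and 6 it was 6.18 against 4.28, 9.15 against 4.42 and 15.8 against 14.4. Without Ctss the within-mouse differences of the housings therefore overlapped. Lyz2 was above 0 in all 3 CD8+ libraries of SE mice (0.856, 1.77 and 11.5 in order of level) and in 0 of the 6 of EE mice. In those 3 libraries a normalized count of 1 stood for 1.04 to 1.17 molecules. In CD4+ libraries Lyz2 was above 0 in 1 of 6 EE mice (5.57) and 0 of 3 SE mice. Other myeloid markers differed from this. Fcer1g was at 0 in all CD8+ libraries. Csf1r was above 0 in 1 of 3 SE and 0 of 6 EE CD8+ libraries, and in 0 of 3 SE and 3 of 6 EE CD4+ libraries. Tyrobp was above 0 in 2 of 3 SE and 1 of 6 EE CD8+ libraries. Where leaving out 1 mouse moved the shift of a named gene with an unadjusted p under 0.05 by over 1.5 times, the shift without it is given. The part of the other cells in the results was not tested.

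**Figure D1:**
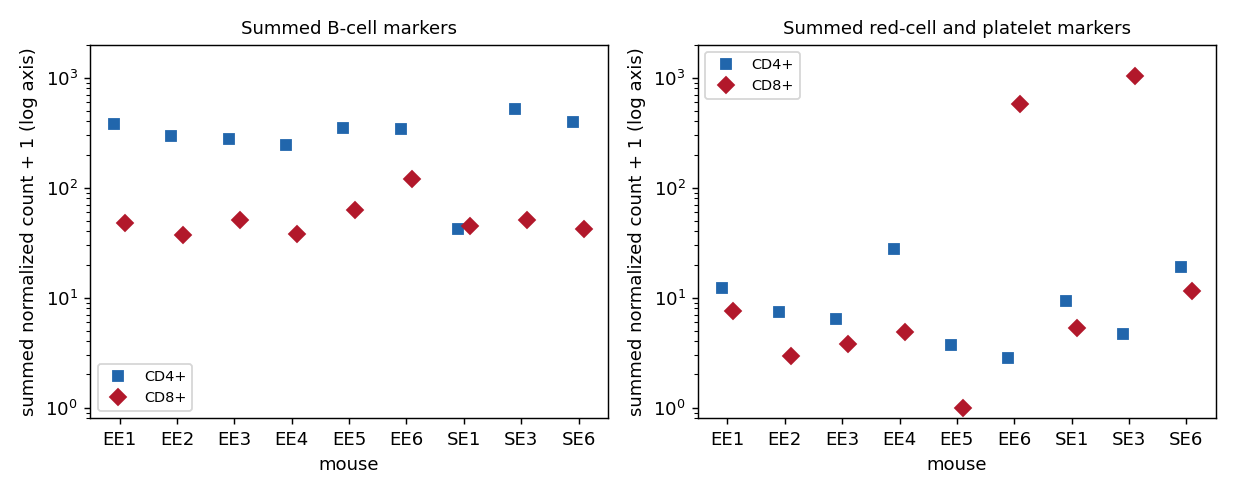
Summed normalized counts of B-cell markers (left) and of red-cell and platelet markers (right) in the CD4+ (squares) and CD8+ (diamonds) library of each of the 9 mice, on a log axis after adding 1. The B-cell sum of CD4+ cells is 41.2 in SE mouse 1 and 243 or more in the other 8 mice; the red-cell and platelet sum is 581 and 1030 in the CD8+ cells of EE mouse 6 and SE mouse 3.

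The lineage genes matched the sort labels in every library. Cd4, the MHC class II coreceptor (chromosome 6, 124864692 to 124888221, GRCm38), was at 53.5 to 85.8 in the CD4+ libraries of EE mice and at 54.6, 58.6 and 57.4 in those of SE mice 1, 3 and 6, and at 0 to 0.97 in all 9 CD8+ libraries. Cd8a, the alpha chain of the MHC class I coreceptor (chromosome 6, 71373427 to 71379173), was at 72.5 to 117 in CD8+ libraries of EE mice and at 91.6, 99.8 and 83.6 in those of SE mice. In CD4+ libraries it was at 0 to 1.84 in EE mice and at 3.09, 0 and 0 in SE mice. Both coreceptor genes thus separated the populations in each mouse. Zbtb7b, the transcription factor that specifies CD4+ cells, was at 0 in all 9 CD8+ libraries and at 5.34 to 21.2 (EE) or 1.03, 9.15 and 20.3 (SE) in CD4+ libraries. Cd40lg, a helper-cell ligand for B cells, was at 13.4 to 33.8 in CD4+ and at 0 to 0.86 in CD8+ libraries.

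Cd8b1, the beta chain of the same coreceptor (chromosome 6, 71322788 to 71337494), had the smallest p of the lineage genes, with a wider difference between the populations in EE. In CD4+ libraries its level ran from 1.26 over a median of 2.50 to 3.66 in EE mice and was 5.15, 9.15 and 5.63 in SE mice 1, 3 and 6. In CD8+ libraries it was 177, 206 and 243 (lowest, median, highest) in EE mice and 183, 217 and 195 in SE mice. The CD8+ levels of the housing groups overlapped, while every CD4+ library of EE mice lay below every one of SE mice. The housing shift was -1.16 on the log2 scale (SE of the fit 0.33, 95% interval -1.82 to -0.50), with an exact permutation p of 0.0119 and a limma adjusted p of 0.573. The shift of Cd8a was -0.36 (95% interval -1.39 to 0.67, exact permutation p = 0.571), and it was 0.31 without SE mouse 1, whose CD4+ library alone of the SE mice held Cd8a. With the unpaired samples added (21 in all, no mouse block) the shift of Cd8b1 was -0.65. The shift of Cd4 was 0.60 (exact permutation p = 0.0476, limma adjusted p = 0.956). That shift rests on CD8+ values of 0 or 1 molecule, and the exact p lay between 0.0536 and 0.179 in 8 of the 9 fits that left out 1 mouse.

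Across the transcriptome, no gene had a difference between CD4+ and CD8+ cells that depended on housing at an adjusted p under 0.05. Of 7949 genes tested (mean normalized count above 2 over the 18 samples), 0 (0%) passed in limma, and the smallest adjusted p was 0.212. At an unadjusted p under 0.05 there were 470 genes (5.91%), 247 with a positive shift (3.11%) and 223 with a negative shift (2.81%). When the recovered molecules were modelled as counts, 0 genes passed after adjustment in edgeR or in DESeq2, and 399 and 155 had an unadjusted p under 0.05. In 234 genes (2.94%) the 3 SE differences lay all above or all below the 6 EE differences, 116 with EE above and 118 with EE below. The median shift over all genes tested was 0.01.

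The precision followed the level of a gene. From the shift to either end of its 95% interval the median distance was 1.32 on the log2 scale, a 2.49-fold change, over all genes tested. It was 0.81 (1.75-fold) for the 2721 genes with a mean above 10 and 0.28 (1.21-fold) for the 225 with a mean above 100. The share at an unadjusted p under 0.05 was 4.95% for means from 2 to 10, 7.75% above 10, 11.8% above 50 and 12.0% above 100. Among the 483 genes above 50, 15 had a positive and 42 a negative shift at that level, and 31 of the latter were pseudogenes, described further on.

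In 433 of the 470 genes the effect of housing had opposite signs in CD4+ and CD8+ cells, and in 37 the same sign. The shift is the housing effect in CD4+ cells minus that in CD8+ cells, so choosing genes with a large shift largely fixes opposite signs, and nothing is read from this count; over all 7949 genes tested the signs were opposite in 48.3%. An unadjusted p under 0.05 was kept in all 9 fits that left out 1 mouse by 62 genes, 30 with a positive and 32 with a negative shift; all 62 were also under 0.05 in edgeR and 59 in DESeq2. That list was drawn after the values were seen.

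Bloc1s1 had the smallest p. It encodes a subunit shared by complexes that form lysosome-related organelles and position lysosomes (chromosome 10, 128917882 to 128924035, minus strand). In CD4+ libraries it was at 25.6, 31.7 and 54.7 (lowest, median, highest) in EE mice and at 15.4, 12.8 and 11.3 in SE mice 1, 3 and 6. In CD8+ libraries it was at 12.0, 21.5 and 29.0 in EE mice and at 24.0, 28.3 and 26.0 in SE mice. The CD4+ groups did not overlap and the CD8+ groups did. CD4+ cells stood above CD8+ cells in all 6 EE mice, by 0.22 to 1.31, and below them in all 3 SE mice, by -0.60, -1.08 and -1.14. The shift was 1.59 (SE 0.35, 95% interval 0.88 to 2.29, limma adjusted p = 0.212, exact permutation p = 0.0119) and lay between 1.45 and 1.76 when any 1 mouse was left out. With all 21 samples and no mouse block it was 1.05 (limma adjusted p = 0.924).

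Among genes with a mean above 10, the 9 others with the smallest p and a positive shift had values from 0.77 to 2.21 and limma adjusted p from 0.29 to 0.603. Trbv16, a T-cell receptor beta variable segment, had a shift of 2.21 (SE 0.54). In CD4+ libraries it was at 9.14 to 33.1 in EE mice and at 16.5, 0.92 and 6.76 in SE mice, so that the groups overlapped, and without SE mouse 3 the shift was 1.28. Arl6ip4, a nuclear protein linked to splicing, had a shift of 1.83 (SE 0.47), which was 0.79 without SE mouse 6, whose CD4+ level was 1.13 against 10.3 and 11.9 in SE mice 1 and 3. Mplkip, a gene mutated in a form of trichothiodystrophy, had a shift of 1.85 (SE 0.49). In both, every EE difference lay above every SE difference. Hif1a, the oxygen-regulated transcription factor, shifted by 1.94 (SE 0.60), with CD4+ levels of 8.91, 13.3 and 25.7 in EE against 4.12, 4.58 and 16.9 in SE, and CD8+ levels of 1.86, 4.01 and 12.6 against 14.6, 9.71 and 6.73. Housing groups overlapped for Hif1a in both populations. Relb, a subunit of the non-canonical NF-kB pathway, shifted by 1.61 (SE 0.50), from differences of -1.42, -0.31 and -1.19 in SE to -0.09 to 1.30 in EE, without overlap. Mob3a, of the MOB family of kinase regulators, shifted by 1.15 (SE 0.36), also without overlap. The predicted gene Gm11974 shifted by 1.88 (SE 0.56) and by 0.82 with all 21 samples.

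Of the genes with a negative shift, Ghitm had the smallest p. This protein of the inner mitochondrial membrane (chromosome 14, 37120092 to 37135272, minus strand) was at 8.55, 16.6 and 32.3 in CD4+ libraries of EE mice and at 28.8, 20.1 and 24.8 in those of SE mice. In CD8+ libraries it was at 15.8, 25.2 and 34.4 in EE and at 5.14, 11.5 and 19.2 in SE. CD4+ cells stood above CD8+ cells in all 3 SE mice and below them in all 6 EE mice. The shift was -1.68 (SE 0.41, 95% interval -2.50 to -0.86, limma adjusted p = 0.29, exact permutation p = 0.0119), and -1.11 without SE mouse 1. Ccdc53, a subunit of the WASH complex that drives actin assembly on endosomes, shifted by -1.69 (SE 0.43), with CD4+ levels of 3.78 to 23.8 in EE and 33.0, 36.6 and 30.4 in SE, which did not overlap. Ndufs5, a subunit of respiratory complex I, shifted by -1.17 (SE 0.35), with CD4+ levels of 12.2 to 27.7 in EE and 37.1, 27.5 and 46.2 in SE; with all 21 samples it was -0.51.

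The transcriptional repressor Zbtb20 (shift -1.43, SE 0.40) stood lower in the CD4+ cells of EE mice, at 12.2 to 20.4 against 21.6, 26.5 and 30.4, and higher in their CD8+ cells, at 11.9 to 25.1 against 11.1, 8.83 and 10.6. Neither population overlapped between housings for this gene. Treml2, a receptor of the TREM family on lymphoid and myeloid cells, shifted by -1.58 (SE 0.47), and by -1.01 without SE mouse 6; its EE and SE differences did not overlap. Limma adjusted p values of the 10 genes with the smallest p in this direction ran from 0.29 to 0.603. Txndc12, a thioredoxin-like protein of the endoplasmic reticulum, had a mean of 5.46 and lay outside the rule for named genes; it was added after its values were seen, for the second smallest p (shift 3.06, SE 0.70, limma adjusted p = 0.212; 1.96 with all 21 samples).

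**Figure D2:**
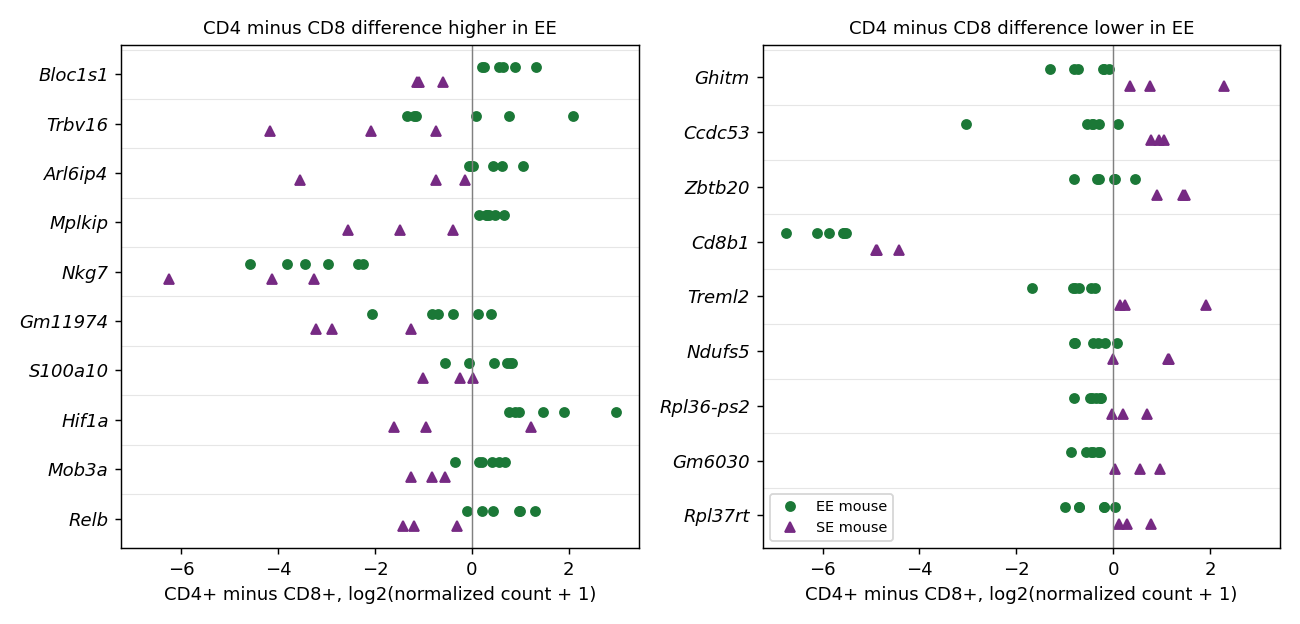
CD4+ minus CD8+ difference in log2(normalized count + 1) of each EE mouse (circles, n = 6) and SE mouse (triangles, n = 3) for genes with a mean above 10 and the smallest p, 10 with a positive housing shift (left) and 9 with a negative one (right). Bloc1s1, Mplkip and Ghitm show no overlap of the housing groups and a change of sign between them, while for Trbv16, Nkg7 and Hif1a the groups overlap.

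Genes of antigen-experienced T cells were the list with the most members at an unadjusted p under 0.05 in 1 direction: 5 of 27 tested (18.5%) had a positive shift and 0 a negative one, against 3.11% and 2.81% of all genes tested. The 5 were S100a10, S100a6, Lgals1, Ccl5 and Itgb1. The list median was 0.25, against 0.01 over all genes tested, and 19 of the 27 shifts were positive. Adjusted p was above 0.05 for all of them in limma. The counts depended on single mice: without SE mouse 1 they were 2 positive and 1 negative and the median -0.01, without SE mouse 3 they were 5 and 0 and the median 0.47.

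S100a6, a calcium-binding protein enriched in memory T cells (chromosome 3, 90612882 to 90624181), was at 21.4, 33.9 and 76.2 in CD4+ libraries of EE mice and at 10.3, 21.1 and 15.8 in those of SE mice 1, 3 and 6. In CD8+ libraries it was at 0, 1.88 and 6.01 in EE mice and at 12.8, 0 and 9.61 in SE mice. Every CD4+ library of EE mice lay above every one of SE mice, and in CD8+ cells SE mouse 3 lay among the EE mice. The within-mouse difference was accordingly 1.94 to 5.43 in EE mice, 4.46 in SE mouse 3, and -0.29 and 0.66 in SE mice 1 and 6. The shift was 2.17 (SE 0.68, 95% interval 0.82 to 3.52, limma adjusted p = 0.603, exact permutation p = 0.131). It was 3.60 without SE mouse 3 (limma adjusted p = 0.00676), 1.22 without SE mouse 1 (limma adjusted p = 0.868) and 1.43 with the animal number as block. Without EE mouse 6 it was 2.54 (limma adjusted p = 0.362).

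S100a10, the partner of annexin A2, was at 71.8, 122 and 165 in CD4+ libraries of EE mice and at 84.4, 45.8 and 78.8 in those of SE mice, with CD8+ levels of 70.4 to 106 and 83.1 to 93.6. Housing groups overlapped in both populations. Its shift was 0.77 (SE 0.24, limma adjusted p = 0.603, exact permutation p = 0.107). Without SE mouse 3 it was 0.47 and no longer under the unadjusted threshold (limma unadjusted p = 0.062), and with the animal number as block it was 0.36. Lgals1, which encodes galectin-1, was at 36.9, 92.8 and 127 in CD4+ libraries of EE mice and at 50.5, 59.5 and 72.1 in those of SE mice, and at 25.4, 33.2 and 52.1 against 41.1, 42.4 and 51.9 in CD8+ libraries. The levels overlapped in each population, yet the within-mouse differences, 0.50 to 1.94 in EE and 0.29, 0.48 and 0.47 in SE, did not. The shift of Lgals1 was 0.82 (SE 0.28, limma adjusted p = 0.666, exact permutation p = 0.0357), and its unadjusted p stayed under 0.05 in every fit that left out 1 mouse but not with all 21 samples (0.48, limma unadjusted p = 0.138) or with the animal number as block (0.57, limma unadjusted p = 0.0747). Itgb1, the integrin beta-1 chain, shifted by 1.01 (SE 0.49, limma adjusted p = 0.839), and its unadjusted p was above 0.05 in 6 of the 9 fits that left out 1 mouse, among them those without each SE mouse.

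Of the 10 cytotoxic genes tested, 3 had a positive shift at an unadjusted p under 0.05 and 0 a negative one, against 3.11% and 2.81% of all genes tested, with a list median of -0.08; the positive count was 1 without SE mouse 1 and 2 without SE mouse 3. Nkg7, a granule membrane protein (chromosome 7, 43437073 to 43438249), was at 130 to 173 in CD8+ libraries of EE mice and at 155, 148 and 135 in those of SE mice, which overlapped. In CD4+ libraries it was at 6.30, 16.6 and 30.1 in EE and at 1.03, 14.6 and 6.76 in SE. Its shift was 1.31 (SE 0.38, limma adjusted p = 0.603, exact permutation p = 0.131), 0.46 without SE mouse 1 and 1.96 without SE mouse 3 (limma adjusted p = 0.904 and 0.0133). With all 21 samples the shift of Nkg7 was 0.72 (limma unadjusted p = 0.104), and with the animal number as block it was 0.60 (limma unadjusted p = 0.0878). Ccl5, a chemokine of effector and memory T cells that also belongs to the antigen-experienced list, was at 3.21, 67.9 and 171 in CD4+ libraries of EE mice and at 0, 45.8 and 4.5 in those of SE mice. Its CD8+ levels were 13.2, 95.1 and 152 in EE and 98.5, 23.9 and 8.65 in SE, so levels of single mice spread far within each housing. The shift was 1.66 (SE 0.68, limma adjusted p = 0.797, exact permutation p = 0.393), and it was -0.57 without SE mouse 1 and 3.20 without SE mouse 3 (limma adjusted p = 0.91 and 0.0133). Serpinb9, an inhibitor of granzyme B, was at a mean of 2.62 and shifted by 2.15 (SE 0.83, limma adjusted p = 0.75); its unadjusted p without SE mouse 3 was 0.0504 in limma.

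**Figure D3:**
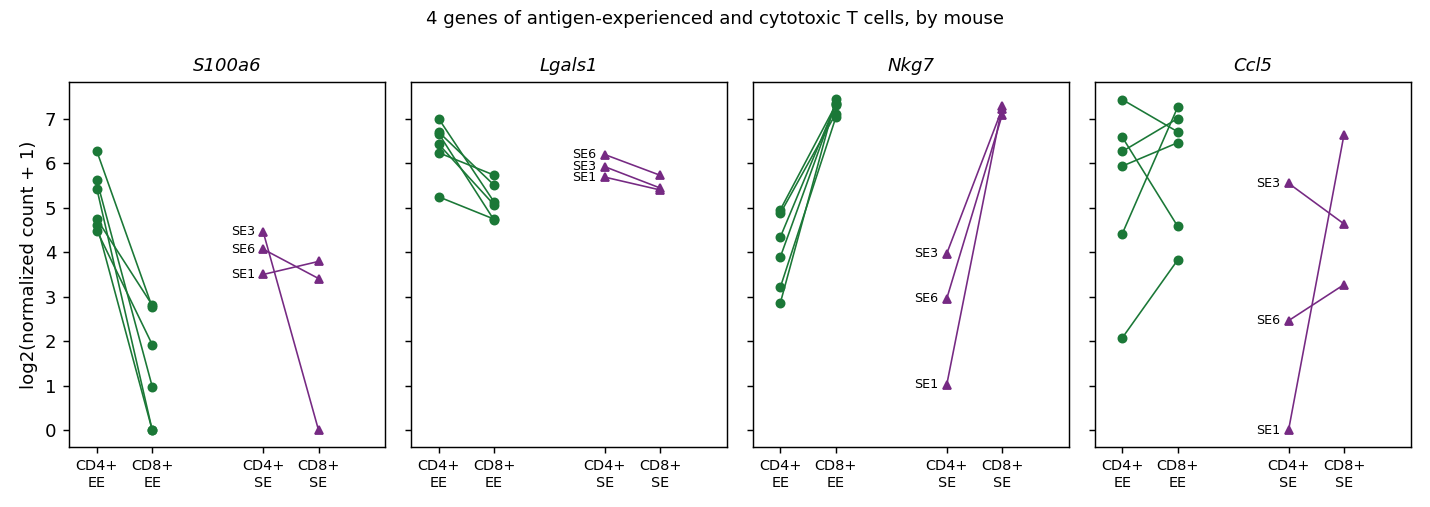
Log2(normalized count + 1) of S100a6, Lgals1, Nkg7 and Ccl5 in the CD4+ and CD8+ library of each EE mouse (circles, n = 6) and SE mouse (triangles, n = 3, named), with a line joining the populations of a mouse. For S100a6 the lines of the EE mice fall from CD4+ to CD8+ by 1.94 to 5.43, and that of SE mouse 3 falls by 4.46. Those of SE mice 1 and 6 change by less than 1. For Ccl5 SE mouse 1 drops to 0 in CD4+ cells.

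Leaving out SE mouse 3 gave 5 genes with an adjusted p under 0.05: S100a6, Ccl5, Nkg7, Arl6ip4 (shift 2.50, limma adjusted p = 0.0133) and Sugp1 (2.30 with all mice), a splicing-related protein (shift 3.73, limma adjusted p = 0.0168; 1.60 without SE mouse 1). Leaving out any other single mouse gave 0. The CD8+ libraries of SE mouse 3 and EE mouse 6 held the red-cell and platelet RNA (sums of 1030 and 581), whose part in these calls was not tested.

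The lists of lineage, signalling and hormone response genes had few members at an unadjusted p under 0.05, which 3.11% (positive) and 2.81% (negative) of all genes tested reached. Of the list members named in this and the next 3 paragraphs, Cd8b1, Relb, Ndufc1, Ndufs5, Psmc1 and Snx18 kept an unadjusted p under 0.05 in all 9 fits that left out 1 mouse. With all 21 samples Cd8b1, Ndufs5 and Psmc1 did not (limma unadjusted p = 0.0535, 0.175 and 0.23). With the animal number as block Ndufc1 did not (limma unadjusted p = 0.0503). Of 12 CD4+ lineage genes 0 were called in either direction (median shift 0.18), and of 10 CD8+ lineage genes there was 1 in each direction, Nkg7 and Cd8b1 (median -0.13). Among 11 genes of regulatory T cells there was 1 positive, Izumo1r, a folate-receptor family protein (shift 1.12, SE 0.52); it was 0.35 without SE mouse 3, whose CD8+ level was 19.4, and 0.73 without EE mouse 3. Of 41 T-cell receptor signalling genes 2 were positive: Nck1, an adaptor to the actin cytoskeleton (1.74, SE 0.62), and Sla, an adaptor that limits receptor signalling (1.52, SE 0.63). The counts of this list were 4 positive and 1 negative without SE mouse 1, and 1 and 1 without SE mouse 3. Sla was at 0 in the CD4+ library of SE mouse 6, and without that mouse its shift was -0.02, while without SE mouse 3 it was 2.48. Of 21 naive T-cell genes 0 were positive and 1 negative (median -0.04).

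Among 26 NF-kB genes, Relb and Malt1, the paracaspase that links antigen receptors to NF-kB (1.43, SE 0.55; 0.50 with all 21 samples), had positive shifts and the inhibitor Nfkbib a negative one (-1.12, SE 0.55). The 41 cytokine and chemokine receptor, JAK, STAT and SOCS genes gave 2 positive and 1 negative. Ifnar2, a chain of the type I interferon receptor, shifted by 1.26 (SE 0.44; 0.84 without SE mouse 3), Ifngr2, a chain of the interferon-gamma receptor, by 1.53 (SE 0.62), and Pim1, a kinase induced by cytokines, by -1.54 (SE 0.74). Interferon-stimulated genes themselves gave 1 positive, Parp14 (0.93, SE 0.46), and 0 negative of 32, a share of 3.12%, near the 3.11% of all genes tested. Of 23 genes of the glucocorticoid receptor, its chaperones and targets, 1 was positive, the chaperone Hsp90ab1 (0.33, SE 0.16; 0.18 without SE mouse 6), and 1 negative, the coactivator Ep300 (-1.46, SE 0.60), with a median of 0.12. The 19 immediate-early genes and the 17 glycolysis genes gave 0 in either direction.

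Proliferation genes gave 2 positive of 19, Dut, which removes dUTP (1.10, SE 0.44; 0.65 without SE mouse 6), and Ccne1, cyclin E1 (1.88, SE 0.88). Clustered histone genes gave 2 positive of 10, Hist1h4m (2.29, SE 0.91) and Hist1h2ae (2.09, SE 0.88), both with means under 5; without SE mouse 3 the histone count was 0 of 11 and the proliferation count 1 of 19, and without SE mouse 6 Hist1h4m was at 3.46. Of 26 heat-shock genes 2 were positive and 1 negative. These counts were 0 and 1 without EE mouse 6, and 2 and 0 without SE mouse 1. Of 65 splicing genes 3 were positive (Sf3a3, which was at 1.39 with all mice and 0.82 without SE mouse 1, Sf3b2 and Prpf6) and 0 negative. Without SE mouse 1 the splicing counts were 1 and 1. Of 46 proteasome genes 1 was positive (Psmc1, an ATPase of the regulatory particle, at 1.20 and at 0.50 with all 21 samples) and 1 negative (Psmb10, an immunoproteasome subunit). Of 78 respiratory chain genes 3 were positive (Ndufc1, Ndufb8 and Uqcrb, the last at 0.69 and at 0.43 without SE mouse 3) and 1 negative (Ndufs5). All these shares rest on 3 genes or fewer. The 12 tested genes that the study names in its RNA-seq results gave 4 positive (Snx18, Hist1h4m, Hist1h2ae and Ccl5) and 0 negative. There were 2 positive of 11 without SE mouse 1, 2 of 12 without SE mouse 3, and 4 with 1 negative of 13 without EE mouse 6. Plekha1, Atp7a, Diap2 and Wdr13, lower in EE in the study, shifted by -1.61, -1.57, -1.35 and -0.40, without a call. The study chose its genes for a housing effect in CD4+ cells of the choroid plexus. Whether the same mice were used is not given in the sources used here. In these spleen CD4+ cells the 12 had a median housing effect of 1.42, against -0.01 over all genes tested, and that effect is part of the shift. They are therefore not taken as independent evidence of a direction.

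Markers of other cells gave 0 calls among 9 B-cell, 1 natural killer and 4 red-cell and platelet genes tested, with median shifts of 0.07, -0.24 and 1.43. Without SE mouse 1 there were 2 negative B-cell calls (median -1.01) and 2 positive red-cell and platelet calls, and without SE mouse 3 there were 1 positive B-cell call and 1 negative red-cell and platelet call (median -0.90). Without EE mouse 6 the red-cell and platelet list gave 2 positive calls. The 1 myeloid marker tested, Ctss, shifted by 0.74 (SE 0.29, limma adjusted p = 0.75). Its lowest, median and highest levels were 34.1, 42.3 and 54.5 in CD4+ libraries of EE mice against 35.0, 28.4 and 34.9 in those of SE mice 1, 3 and 6, and 24.2, 35.4 and 37.6 against 42.0, 50.3 and 38.5 in CD8+ libraries, where the housings did not overlap. Its unadjusted call was lost without SE mouse 3 (0.54, limma unadjusted p = 0.109), and with all 21 samples the shift was 0.29.

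**Figure D4:**
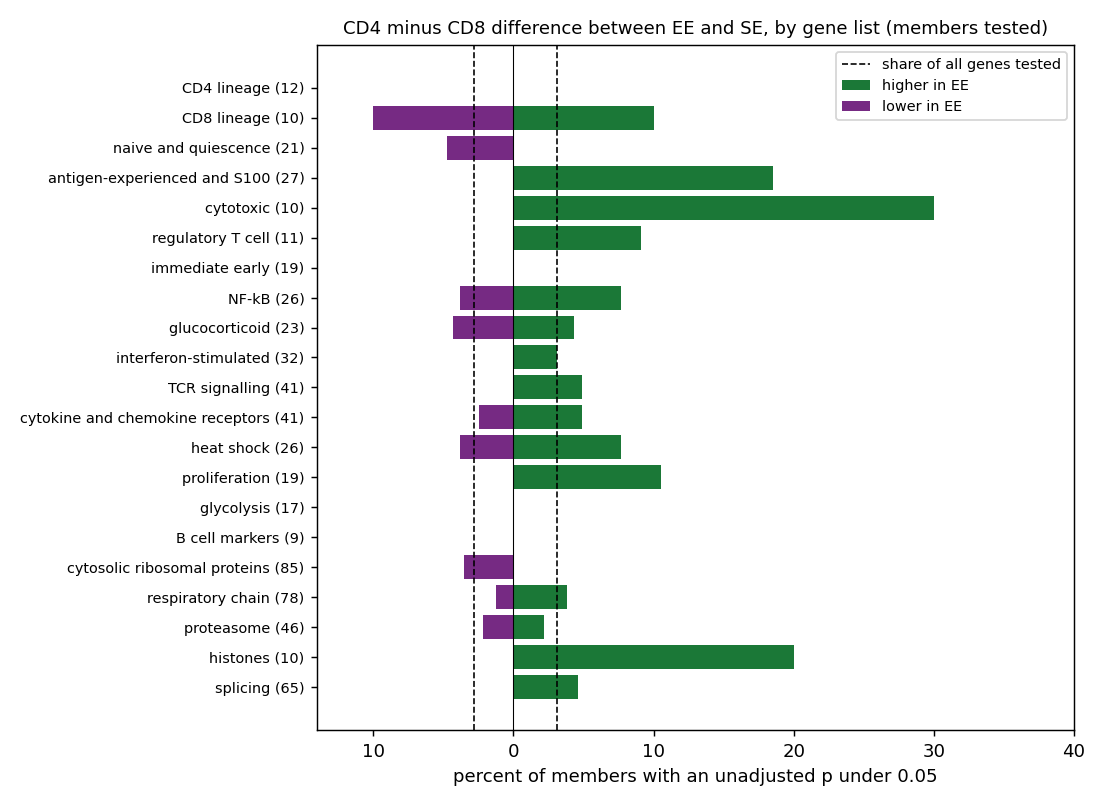
Percent of the tested members of each gene list (number in brackets) with an unadjusted p under 0.05 and a positive housing shift (green, to the right) or a negative one (purple, to the left), with the share of all genes tested as dashed lines at 3.11% and 2.81%. Lists with at least 9 tested members are drawn, without the genes named by the study. Cytotoxic genes (3 of 10), histones (2 of 10) and antigen-experienced genes (5 of 27) reach farthest to the right, with 0 members to the left.

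Averaged over both housings, 315 genes (3.96%) differed between CD4+ and CD8+ cells at a limma adjusted p under 0.05, 159 higher in CD4+ and 156 higher in CD8+ cells. The standard error of this average is smaller than that of the housing shift (0.16 against 0.33 for Cd8b1), so the 2 counts of calls differ in power. Apart from the coreceptor genes and Nkg7, those with the smallest p included Ly6c2 (-3.83, SE 0.21), Ly6c1 (2.69, SE 0.17), Ly6a (1.92, SE 0.14), the cathepsin Ctsw (-2.65, SE 0.18) and the killer receptor chain Klrd1 (-2.67, SE 0.19). Ly6c1 and Ly6c2 are near-identical neighbours whose reads the counting could have split. B-cell markers gave 7 of the 315, higher in CD4+ cells, among them Cd74 (4.69, SE 0.30). Its level was 80.2 to 188 in the CD4+ libraries other than that of SE mouse 1, where it was 10.3.

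All 315 genes had the same sign in EE and SE mice, which the choice of the genes on the average of both housings largely fixes. Over all 7949 genes tested, Pearson's r between the mean differences of EE and SE mice was 0.386, a description across genes, which are not independent. The median size of the difference was 1.06 in EE and 1.34 in SE mice; it was larger in EE for 132 genes and larger in SE for 183. The EE mean rests on 6 mice and the SE mean on 3, so these sizes carry different errors. The genes were chosen on an average that weights the housings equally, and no direction is read from these counts. For the housing shift 36 of the 315 (11.4%) had an unadjusted p under 0.05, and 0 an adjusted p under 0.05. The unadjusted share was 5.91% over all genes tested and 7.75% over those with a mean above 10. The difference was wider in EE for 10 of these 36, among them Cd8b1, S100a6, Lgals1, Itgb1 and Izumo1r, and narrower in the other 26. The 315 were chosen on the same mice and error variance, and with 6 and 3 mice their average is not independent of the shift. Nothing is therefore read from the share of 11.4% or from the directions of the 36. The lysosomal protease Ctsd was at -0.96 in SE and -0.15 in EE (shift 0.82, SE 0.30; 0.52 without SE mouse 1), and the nucleolar methyltransferase Fbl at -0.97 and -0.14 (0.83, SE 0.30; 0.38 without SE mouse 6 and 1.28 without SE mouse 1). Trbv16 and Trbv29, both higher in CD8+ cells, and Trbv4, higher in CD4+ cells, had narrower differences in EE, with shifts of 2.21, 1.39 and -1.41. Trbv29 was at 0.61 without SE mouse 3 and 0.88 without EE mouse 1, and Trbv4 at -0.75 without SE mouse 6.

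**Figure D5:**
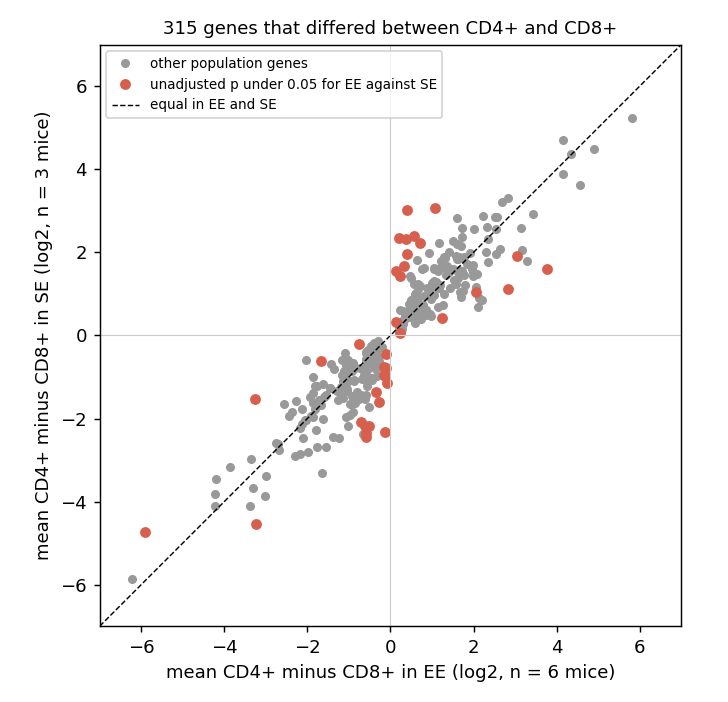
Mean CD4+ minus CD8+ difference in log2(normalized count + 1) in SE mice (vertical, n = 3) against EE mice (horizontal, n = 6) for the 315 genes that differed between the populations, with the 36 whose housing shift had an unadjusted p under 0.05 in red. The genes were chosen on the average of both axes, which largely fixes their shared sign. Of the 36 red points, 10 lie farther from 0 in EE than in SE and 26 nearer, and no direction is read from these counts.

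Among the most abundant transcripts the shift leaned to 1 side in pseudogenes. This group was formed after the values were seen. Of the 79 annotated pseudogenes with a mean above 50, 31 had a negative shift at an unadjusted p under 0.05 and 0 a positive one, 75 had a shift below 0, and the median was -0.33. The 377 protein-coding genes above the same mean gave 9 negative and 13 positive, with a median of -0.02. The median CD4+ minus CD8+ difference over these pseudogenes was -0.40 to -0.15 in the 6 EE mice and 0.02, -0.08 and 0.37 in SE mice 1, 3 and 6, without overlap. Of the 79, 32 carry the name of a ribosomal protein gene, such as Rpl36-ps2 (-0.73, SE 0.22) and Rpl37rt (-0.85, SE 0.27). Processed pseudogenes are near copies of their parent genes, so their counts depend on how shared reads were placed and are uncertain as levels of the pseudogenes themselves.

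Cytosolic ribosomal protein genes, a list that includes retrocopies such as Rps27rt, were set beside the pseudogenes with no test between them. Of 85 cytosolic ribosomal protein genes tested, 76 had a shift below 0, against 3927 of all 7949 genes tested, and the median was -0.07, against 0.01. At an unadjusted p under 0.05, 0 were positive and 3 (3.53%) negative, near the 2.81% of all genes tested: Rps27rt (-0.58, SE 0.19; -0.34 without SE mouse 6), Rpl22l1 (-0.45, SE 0.16) and Rps15 (-0.27, SE 0.11). Their median difference was 0.02, -0.24, -0.04, -0.10, -0.19 and -0.08 in EE mice 1 to 6 and 0.08, -0.24 and 0.08 in SE mice, which overlapped. Without SE mouse 3, 32 of the ribosomal protein genes were negative at that level and the median was -0.19. For the pseudogenes the count of negative shifts at an unadjusted p under 0.05 was 4 without SE mouse 6, 19 to 38 without any other mouse and 12 in DESeq2. The number with a shift below 0 was 70 to 77 of 79 with 1 mouse left out and 75 in DESeq2, and with 1 mouse left out their median lay between -0.43 and -0.18.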

How the data were processed

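Per the labels and the study's methods, reads with molecular identifiers were sequenced on an Ion Proton, trimmed with cutadapt, aligned with STAR 2.4.0a to mm10 and counted with Drop-seq tools on Ensembl GRCm38 genes; low-abundance genes were removed. The deposited values are molecule counts divided by DESeq2 size factors (signal). Whole molecules were recovered from the deposited signal for 100% of values (tolerance 0.0001). Coordinates are from GENCODE M21 (GRCm38), which matched 12489 of 12994 gene names; 505 did not match.

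Within-mouse differences of log2(value + 1) were compared between housings with limma 3.58.1 (R 4.3.3), with the prior variance following the mean log2 level, over 7949 genes with a mean above 2; p-values were adjusted by Benjamini-Hochberg over all of them. The mouse is a block in this fit, since the labels give both populations of a mouse the same animal number; deviations of its 2 libraries from their group means correlated little (r from -0.013 to 0.035). edgeR 4.0.16 and DESeq2 1.42.0 on the recovered molecules, other filters, scalings and blocks, and leaving out each mouse were alternatives. Scripts were tested on simulated data. All 46 pairs of libraries of a group differed beyond sampling noise. Single genes were compared by exact permutation over 84 splits. Each mouse was a separate animal, and the treatment protocol places those of each housing in the same cage, so p-values measure the spread between cage mates.

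Members and gene lists were chosen with earlier results of these data known. Named genes were the 10 with the smallest p in each direction among means above 10, the 2 with the smallest p in each list, the sort markers with S100a6 and S100a10, and the genes named by the study; others were added after their values were seen, among them Lgals1, Itgb1, Txndc12, Sugp1 and members counted in small numbers. Single genes of the naive T-cell list are not reported here.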

Additional observations from a re-analysis of the deposited data

Results flagged for a closer look

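Within the 6 EE mice, 5 of 74 sets of differences held 1 mouse far from the others by Dixon's test; chance gives about 1 in 20, or 3.7 sets. The CD4+ minus CD8+ difference of Ccdc53 was -3.03 in EE mouse 1, against -0.54 to 0.10 in the other EE mice. In the same mouse that of Serpinb9 was -0.34, against 1.14 to 1.91, and that of Sf3b2, a spliceosome subunit, was -0.32, against 0.23 to 0.53. Treml2 was at -1.68 in EE mouse 2, against -0.83 to -0.38. H2-Eb1, an MHC class II chain of B cells, was at 2.12 in EE mouse 6, against 4.88 to 5.32; the summed B-cell markers of the CD8+ library were 119 in that mouse and 35.8 to 61.7 in the other EE mice, and their part in the value was not tested.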

How the results depend on the processing

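The count of genes with an adjusted p under 0.05 for the housing shift was 0 under every alternative except 1 gene (Ccdc53, shift -2.25, adjusted p = 0.0109) with the animal number as replicate block and 0 to 5 with 1 mouse left out (5 without SE mouse 3). Animals of the 2 housings share only a number (r of their deviations -0.0392 to -0.00115). Without a replicate block for the mouse 0 genes passed and 432 had an unadjusted p under 0.05; with the animal number 400 did. Unadjusted counts were 196 with a mean above 10, 155 in DESeq2 and 396 to 552 with 1 mouse left out. Genes that differed between the populations numbered 190 with a mean above 10, 157 in DESeq2, 129 with the prior variance following the mean difference (chosen after seeing the data) and 220 to 294 with 1 mouse left out; genes with separated mice numbered 100 with a mean above 10. The shift of Cd4 ran from 0.44 to 0.89, of Cd8a from -0.76 to 0.31 and of Cd8b1 from -1.24 to -0.99 with 1 mouse left out. Over 73 named genes, none passed the adjusted threshold in the main comparison, so keeping that side says little of stability; of 1402 alternative values 5 newly passed it and 16 in 10 genes changed sign. With 1 mouse left out the latter ran from -0.019 to 2.48 (Sla), -0.98 to 2.04 (H2-Eb1), -1.01 to 1.21 (Cd74), -0.82 to 0.30 (Prf1), -0.21 to 3.86 (Hba-a1), -0.69 to 3.49 (Hbb-bt), -0.44 to 1.25 (Zbtb7b), -0.999 to 0.046 (Wdr13) and -0.57 to 3.20 (Ccl5). With all 21 samples Cd74 was at -0.025 and Ccl5 at -0.16, with the animal number as block Cd74 was at -0.36 and Hbb-bt at -0.014, and in edgeR Cd74 was at -1.52. The causes were not tested. Depth limits the genes with a mean from 2 to 10, whose intervals reach 1.53 (log2, median) to either side.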
